A study of Homo sapiens with 4 samples.

Results

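The genes described here make cholesterol and fatty acids or control their making. They were chosen by a fixed list of 33 gene symbols: 18 enzymes of sterol synthesis, 6 genes of SREBP control and sterol carriage, and 9 enzymes of fatty acid synthesis. The array annotation named 29 of the 33, among 14884 named genes in all, and each was represented by its probe set with the highest mean. FDFT1, LSS, CYP51A1 and SC5D, all of sterol synthesis, had no named probe set and were not analysed here. Of the 29, 28 had a mean log2 intensity at or above the median of all named genes (4.97) and were tested among 7442 genes. The exception was HSD17B7, given here as values.

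ARP-1 and MM.1S are human lines of multiple myeloma, which is a plasma cell cancer. The MIF-KO cells carried a lentiviral short hairpin RNA against MIF, a secreted inflammatory cytokine, and the CTR-KO cells a control hairpin. All 4 cultures were sorted for the green fluorescent marker and grown in RPMI1640 with fetal bovine serum, penicillin and streptomycin. A hairpin lowers a transcript and leaves the gene in place, so KO stands for a knockdown here. There was 1 array for each line and condition, and the labels name no separate cultures. So p-values set a difference against the disagreement of the lines between single arrays, pooled in part over genes. That disagreement may be technical. Titles and genotype labels put each array in its group, whereas for ARP-1 the free-text description of either array gives the other condition. Each array holds RNA of a whole culture, so fewer cells with a transcript and less transcript per cell cannot be told apart. Levels are log2 of the deposited intensity, and a difference is the MIF-KO level less the CTR-KO level unless stated. A difference of at least 1.5-fold (0.585 on the log2 scale) within a line was counted, with no test, since it rests on 1 array per condition.

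Cholesterol is built from acetyl-CoA through mevalonate, isoprenoids, squalene and lanosterol, and fatty acids are built from acetyl-CoA through malonyl-CoA, then elongated and desaturated. Both routes are under SREBP transcription factors, which are held in the endoplasmic reticulum with SCAP and INSIG proteins and are released by proteolysis when sterol runs low. Plasma cells need membrane lipid for their wide secretory reticulum, and cells grown with serum can also take up cholesterol.

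MIF was lower on the array titled MIF-KO of each line. Its log2 level was 9.08 in MIF-KO against 10.09 in CTR-KO ARP-1, and 8.66 in MIF-KO against 9.98 in CTR-KO MM.1S. Over both lines the mean difference was -1.17 (SE 0.29, 95% interval -1.92 to -0.42). The limma p was 0.010 unadjusted and 0.99995 adjusted over all 7442 tested genes. All 6 named plasma cell markers of 9 listed, SDC1, CD38, XBP1, IRF4, SLAMF7 and MZB1, lay above the filter, whereas 0 of 3 named B cell markers and 0 of 3 named monocyte markers did. Of T cell and of stromal or epithelial markers, CD8A (1 of 2 named) and KRT18 (1 of 3) lay above it, at 5.39 and 7.37 in MIF-KO and 5.70 and 7.33 in CTR-KO ARP-1, and at 5.50 and 7.33 in MIF-KO and 5.09 and 7.67 in CTR-KO MM.1S. Summed over the plasma cell markers, the log2 intensity was 12.74 in MIF-KO and 12.50 in CTR-KO ARP-1, and 12.53 in MIF-KO and 12.55 in CTR-KO MM.1S. Single plasma cell markers differed in both directions in ARP-1. SDC1 and CD38 were lower in MIF-KO ARP-1, at 7.52 and 5.39, against 8.88 and 6.83 in CTR-KO ARP-1. In MM.1S they were at 8.88 and 5.81 in MIF-KO and 8.40 and 5.36 in CTR-KO. XBP1, IRF4 and MZB1 were higher in MIF-KO ARP-1, at 10.37, 12.10 and 9.60, against 9.86, 11.81 and 9.14 in CTR-KO ARP-1. SLAMF7 was nearly level in ARP-1, at 6.93 in MIF-KO and 6.90 in CTR-KO. The part of these markers in the results was not tested. The arrays had near-equal median log2 levels over all probe sets, 3.71 to 3.73. One array, CTR-KO ARP-1, stood somewhat apart. Its median distance from a gene's mean over the 4 arrays was 0.18 for all tested genes. That distance was 0.15 on MIF-KO ARP-1, 0.11 on MIF-KO MM.1S and 0.14 on CTR-KO MM.1S. CTR-KO ARP-1 was the highest or the lowest of the 4 for 64.5% of all tested genes, a share not computed for the other arrays. Each ARP-1 result rests on CTR-KO ARP-1, and the MM.1S values are those without it.

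In ARP-1, the lipid genes differed in both directions between MIF-KO and CTR-KO cells, and in MM.1S none was 1.5-fold apart with the probe sets used. In ARP-1, 8 of the 29 genes were higher in MIF-KO by 1.5-fold or more (27.6%, against 10.9% of all tested genes) and 6 were lower by as much (20.7%, against 11.9%). The higher ones were FADS1, SREBF1, ACSS2, INSIG1, HSD17B7 (below the filter), SREBF2, SCD and ELOVL5, and the lower ones ACAT2, ELOVL6, TMEM97, FASN, NSDHL and ACACA. In MM.1S, 0 of 29 passed this fold in either direction, against 5.12% of all tested genes higher and 2.89% lower. A further SCD probe set, not used for the counts, did pass it in MM.1S, at -0.91. At a lower bound of 0.322 on the log2 scale, 7 genes were higher in MIF-KO MM.1S (24.1%, against 18.5%) and 5 lower (17.2%, against 11.7%). At 2-fold in ARP-1, SREBF1, ACSS2 and FADS1 were higher (3 of 29, 10.3%, against 3.7%) and ACAT2 lower (1 of 29, 3.45%, against 2.9%). The median size of difference in MM.1S was 0.19 for the 29 genes and 0.20 for all tested genes, and in ARP-1 it was 0.56 and 0.29. These shares describe single arrays and were not tested against each other.

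**Figure D1:**
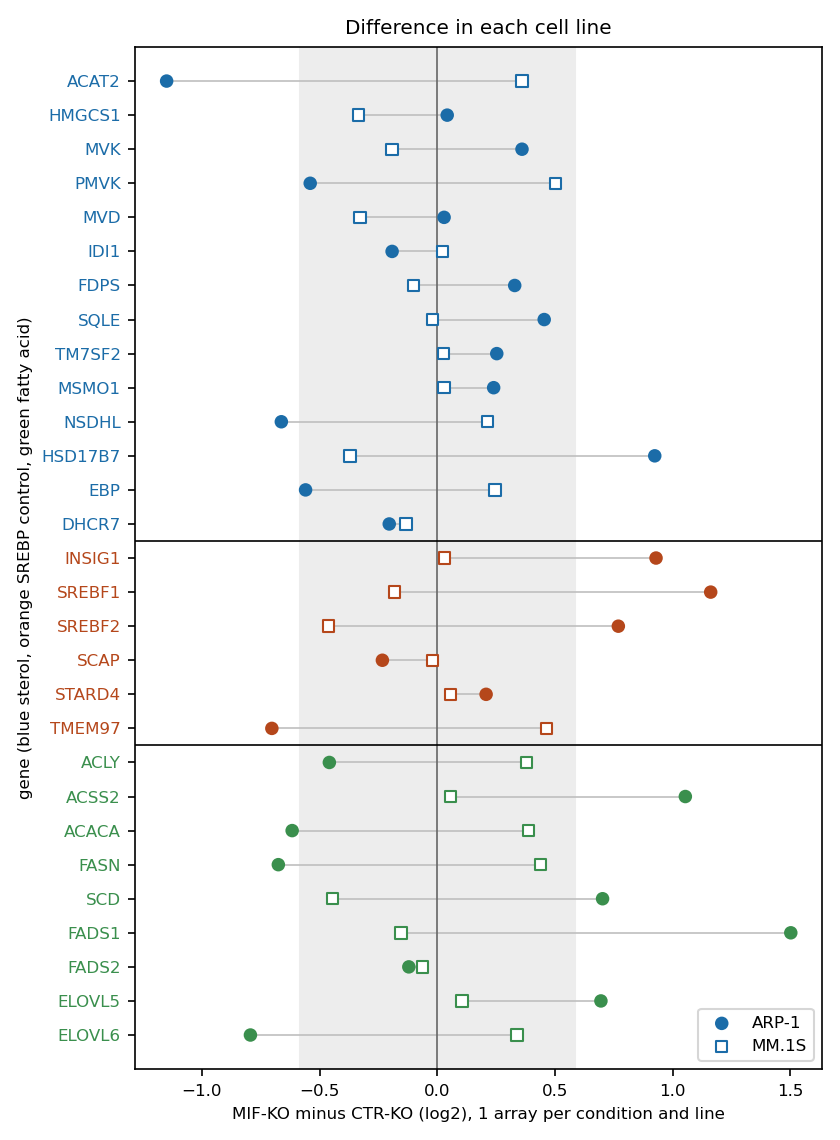
Difference between MIF-KO and CTR-KO (log2, x axis) for each of 29 lipid synthesis genes (y axis), as filled circles for ARP-1 and open squares for MM.1S, each from 1 array per condition. The grey band spans differences under 1.5-fold: 14 ARP-1 circles lie outside it and no MM.1S square does.

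No gene passed the test over both lines. The limma fit with terms for cell line and condition found 0 of 7442 genes with an adjusted p under 0.05 (0%), and so 0 of the 28 tested lipid genes. At an unadjusted p below 0.05, limma counted 29 genes (0.39%), none of them a lipid gene. Fewer genes passed than this threshold would let through with no differences at all. The 0 calls thus come from a cautious test and do not show that levels were equal. The residual error of this fit is the disagreement of the lines, with 1 residual degree of freedom. The eBayes step draws it toward a trend over all tested genes, with 3.99 prior degrees of freedom. So each SE weighs that trend more than the gene's own disagreement. Mean differences of the lipid genes lay between -0.39 (ACAT2) and 0.67 (FADS1), with standard errors between 0.20 and 0.46. The lowest p among them belonged to ACSS2 (mean difference 0.56, SE 0.31, 95% interval -0.24 to 1.36, limma adjusted p = 0.99995), with higher values in MIF-KO of both lines.

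Of the 3 roles, SREBP control had the median furthest from 0 in ARP-1. Over its 6 genes the median difference was 0.49 in ARP-1 but 0.0058 in MM.1S, and all tested genes had medians of -0.026 in ARP-1 but 0.036 in MM.1S. SREBF1, which encodes the SREBP of lipogenesis, had a log2 level of 7.94 in MIF-KO against 6.77 in CTR-KO ARP-1, and 7.81 in MIF-KO against 7.99 in CTR-KO MM.1S. SREBF2, which encodes the SREBP of cholesterol synthesis, had 9.27 in MIF-KO against 8.50 in CTR-KO ARP-1, and 8.92 in MIF-KO against 9.38 in CTR-KO MM.1S. For both transcription factor genes, the CTR-KO ARP-1 array gave the lowest level and CTR-KO MM.1S the highest. INSIG1, the sterol-sensitive anchor of SCAP and itself a classic SREBP target, had 10.84 in MIF-KO against 9.91 in CTR-KO ARP-1, and 10.64 in MIF-KO against 10.61 in CTR-KO MM.1S. Here too CTR-KO ARP-1 was low, and the other 3 arrays lay within 0.23 of each other.

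SCAP, the sterol-sensing escort of the SREBPs, lay within 0.24 over all arrays, with differences of -0.23 in ARP-1 and -0.020 in MM.1S. STARD4, a soluble sterol carrier, differed by 0.21 and 0.056. TMEM97, a protein of the endoplasmic reticulum that binds the cholesterol transporter NPC1, ran the other way. Its level was 8.30 in MIF-KO against 9.004 in CTR-KO ARP-1, and 9.11 in MIF-KO against 8.65 in CTR-KO MM.1S. So within this group the SREBP genes and INSIG1 were higher, and TMEM97 lower, in MIF-KO ARP-1. Mean differences over both lines were 0.49 for SREBF1 (SE 0.42) and 0.48 for INSIG1 (SE 0.32), both with a limma adjusted p of 0.99995.

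**Figure D2:**
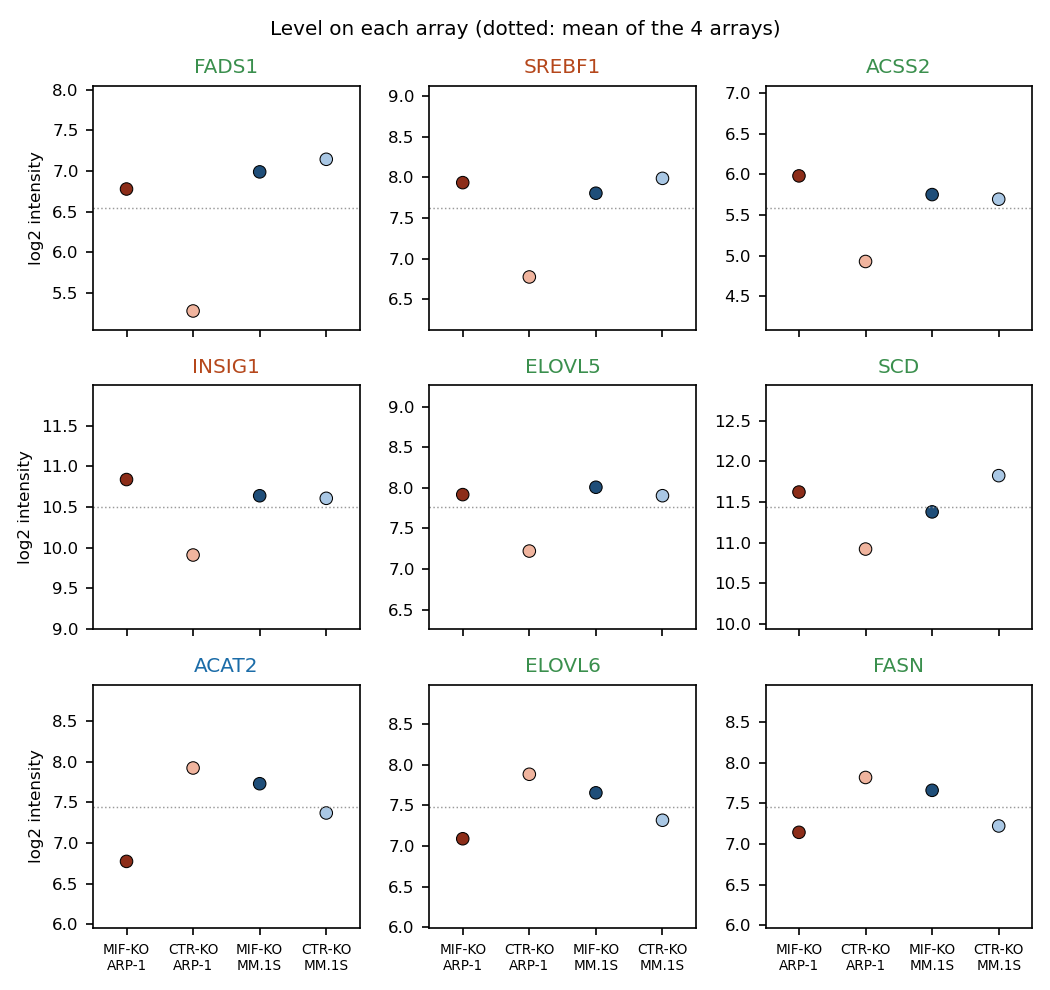
Log2 intensity (y axis, 3 log2 units in every panel) of 9 lipid genes on the 4 arrays (x axis), 1 point per array, with the mean as a dotted line. In the upper 2 rows CTR-KO ARP-1 lies lowest; in the lowest row, ACAT2, ELOVL6 and FASN, MIF-KO ARP-1 lies lowest and CTR-KO ARP-1 highest.

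Of the fatty acid genes, 4 were higher (44.4%, against 10.9% of all tested genes) and 3 lower (33.3%, against 11.9%) by 1.5-fold or more in MIF-KO ARP-1. ACLY makes cytosolic acetyl-CoA from citrate, ACACA turns it into malonyl-CoA, FASN builds palmitate and ELOVL6 lengthens it. FASN had a log2 level of 7.14 in MIF-KO against 7.82 in CTR-KO ARP-1, and 7.66 in MIF-KO against 7.22 in CTR-KO MM.1S. ELOVL6 had 7.09 in MIF-KO against 7.88 in CTR-KO ARP-1, and 7.65 in MIF-KO against 7.32 in CTR-KO MM.1S. ACACA had 7.18 in MIF-KO against 7.79 in CTR-KO ARP-1, and 7.83 in MIF-KO against 7.44 in CTR-KO MM.1S. All 3 were below CTR-KO by more than 1.5-fold in ARP-1 and above it, by less, in MM.1S, although ACACA came under 1.5-fold with quantile normalization (-0.56) or a pseudocount of 16 (-0.57). ACLY followed at a smaller size, -0.46 in ARP-1 and 0.38 in MM.1S.

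SCD, FADS1 and ELOVL5 were higher in MIF-KO ARP-1, and FADS2 was nearly level. FADS1, a desaturase of polyunsaturated fatty acid synthesis, showed the widest difference of the 29 genes. Its level was 6.78 in MIF-KO against 5.28 in CTR-KO ARP-1, 2.83-fold apart, and 6.99 in MIF-KO against 7.14 in CTR-KO MM.1S. CTR-KO ARP-1 was low, and the other 3 arrays lay within 0.37. SCD, which makes oleate from stearate, had 11.62 in MIF-KO against 10.92 in CTR-KO ARP-1, and 11.38 in MIF-KO against 11.82 in CTR-KO MM.1S. A further SCD probe set, with a lower mean, differed by 0.94 in ARP-1 and by -0.91 in MM.1S. These are the same directions at a larger size, past 1.5-fold in both lines. ELOVL5, an elongase of polyunsaturated chains, had 7.92 in MIF-KO against 7.22 in CTR-KO ARP-1, and 8.01 in MIF-KO against 7.90 in CTR-KO MM.1S. FADS2, the partner desaturase of FADS1, lay between 5.26 and 5.43 on all 4 arrays, with a difference of -0.12 in ARP-1.

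ACSS2 makes acetyl-CoA from acetate, a route beside ACLY. Its level was 5.98 in MIF-KO against 4.93 in CTR-KO ARP-1, and 5.75 in MIF-KO against 5.69 in CTR-KO MM.1S. The 2 suppliers of acetyl-CoA thus differed in opposite directions in ARP-1, by 1.05 for ACSS2 and -0.46 for ACLY. The fatty acid median was -0.12 in ARP-1 and 0.10 in MM.1S, although 7 of 9 genes in ARP-1 were at least 1.5-fold apart (4 higher and 3 lower). The share of all tested genes at least 1.5-fold apart in ARP-1 was 22.8%.

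Sterol enzymes differed least in ARP-1. Their median size of difference was 0.34, against 0.74 for SREBP control, 0.70 for fatty acid synthesis and 0.29 for all tested genes. The signed median over 14 genes was 0.035 in ARP-1 but 0.0016 in MM.1S, and in ARP-1 1 gene was higher by 1.5-fold or more (7.14%, against 10.9% of all tested genes) and 2 were lower (14.3%, against 11.9%). The 1 higher gene was HSD17B7, which lay below the filter and came under 1.5-fold with a pseudocount of 16 (0.57). Of the first steps, ACAT2, which joins acetyl-CoA units, was the furthest apart. It had a level of 6.77 in MIF-KO against 7.92 in CTR-KO ARP-1, and 7.73 in MIF-KO against 7.37 in CTR-KO MM.1S. HMGCS1, which makes HMG-CoA and is an SREBP target, had 7.53 in MIF-KO against 7.49 in CTR-KO ARP-1, and 7.59 in MIF-KO against 7.92 in CTR-KO MM.1S. HMGCS1 was thus nearly level in ARP-1. Of the 14 sterol genes, 8 were higher and 6 lower in MIF-KO ARP-1 by any amount, and SREBP activity was not tested.

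In the mevalonate part, the kinases MVK and PMVK differed in opposite directions within each line. MVK differed by 0.36 in ARP-1 and by -0.19 in MM.1S. PMVK had 8.88 in MIF-KO against 9.42 in CTR-KO ARP-1, and 9.42 in MIF-KO against 8.92 in CTR-KO MM.1S, close to a mirror image. MVD, the decarboxylase that ends this part, differed by 0.029 and -0.33. Of the isoprenoid enzymes, the isomerase IDI1 differed by -0.19 in ARP-1 and by 0.022 in MM.1S, and the farnesyl diphosphate synthase FDPS by 0.33 and -0.10. A further FDPS probe set gave 0.40 and 0.074, so its sign in MM.1S depends on the probe set. SQLE, the squalene epoxidase and a rate-limiting step, differed by 0.45 and -0.019. None of these 6 enzymes was 1.5-fold apart in either line.

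Among enzymes that turn lanosterol into cholesterol, NSDHL, a decarboxylating dehydrogenase, had 7.62 in MIF-KO against 8.28 in CTR-KO ARP-1, and 7.98 in MIF-KO against 7.77 in CTR-KO MM.1S. EBP, the sterol isomerase, followed it with -0.56 in ARP-1 and 0.24 in MM.1S. HSD17B7, the ketoreductase that acts with NSDHL, went the other way at a level below the filter. It had 5.14 in MIF-KO against 4.22 in CTR-KO ARP-1, and 4.32 in MIF-KO against 4.69 in CTR-KO MM.1S. HSD17B7 has a closely similar pseudogene whose transcripts could share its probes, and a low level leaves its difference uncertain. The methyl oxidase MSMO1 differed by 0.24 in ARP-1 and by 0.029 in MM.1S, and the reductase TM7SF2 by 0.25 and 0.027. DHCR7, the reductase of the last step, differed by -0.20 and -0.13, one of 3 genes of the 29 (with FADS2 and SCAP) that were lower in MIF-KO of both lines.

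**Figure D3:**
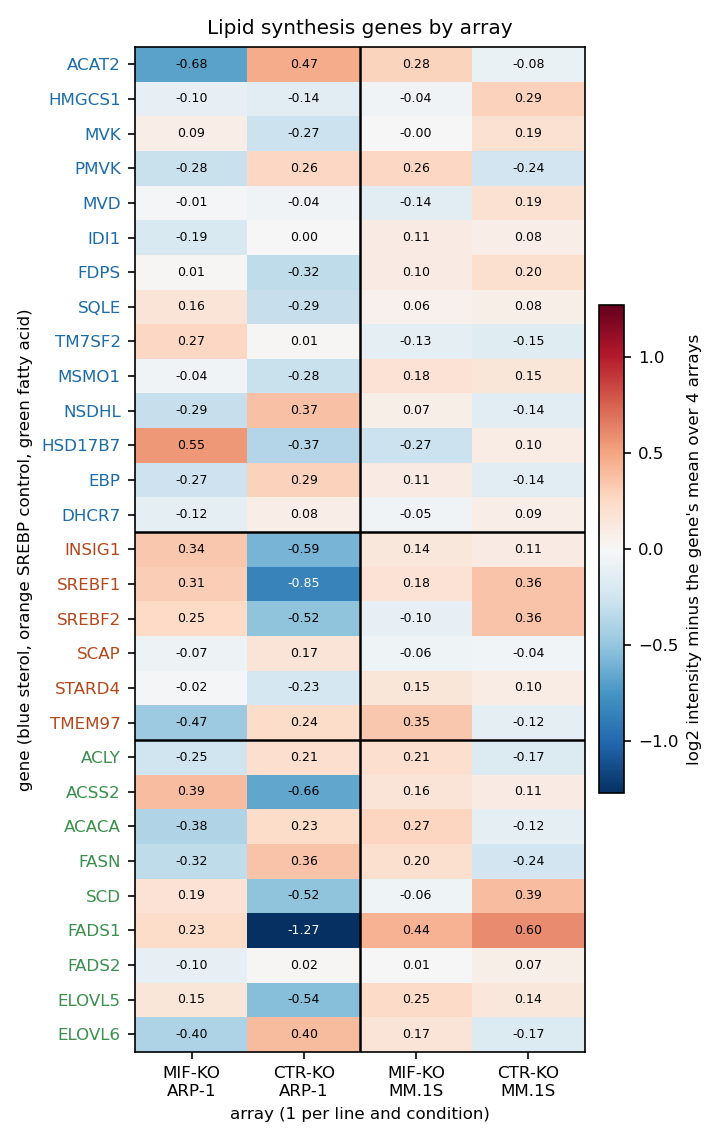
Log2 intensity minus the gene's mean over 4 arrays (colour and printed value) for 29 lipid genes (rows, by role) on each array (columns). The deepest blue cells, FADS1 at -1.27 and SREBF1 at -0.85, are on CTR-KO ARP-1.

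For the 8 genes higher in MIF-KO ARP-1, the CTR-KO ARP-1 array had the lowest level of the 4. For the 6 lower ones MIF-KO ARP-1 had the lowest level, and the highest was on CTR-KO ARP-1 for ACAT2, ELOVL6, FASN and NSDHL but on MIF-KO MM.1S for TMEM97 and ACACA. Over all 29 genes, CTR-KO ARP-1 was the lowest of the 4 arrays for 14 of the 29 genes and the highest for 6, which is 48.3% and 20.7%, against 32.5% and 32.1% of all tested genes. The extremes together made 20 of 29 (69%), near the 64.5% of all tested genes. Relative to each gene's mean, the SREBP control median was 0.12 on MIF-KO ARP-1 and -0.37 on CTR-KO ARP-1, and 0.15 on MIF-KO MM.1S and 0.10 on CTR-KO MM.1S. MIF-KO ARP-1 lay near CTR-KO MM.1S: 1 of 29 genes, ACAT2, was at least 1.5-fold apart between them (3.45%, against 6.64% of all tested genes). Between MIF-KO MM.1S and CTR-KO ARP-1 it was 5, namely INSIG1, SREBF1, ACSS2, FADS1 and ELOVL5 (17.2%, against 10.5%). What set the CTR-KO ARP-1 array apart was not tested.

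**Figure D4:**
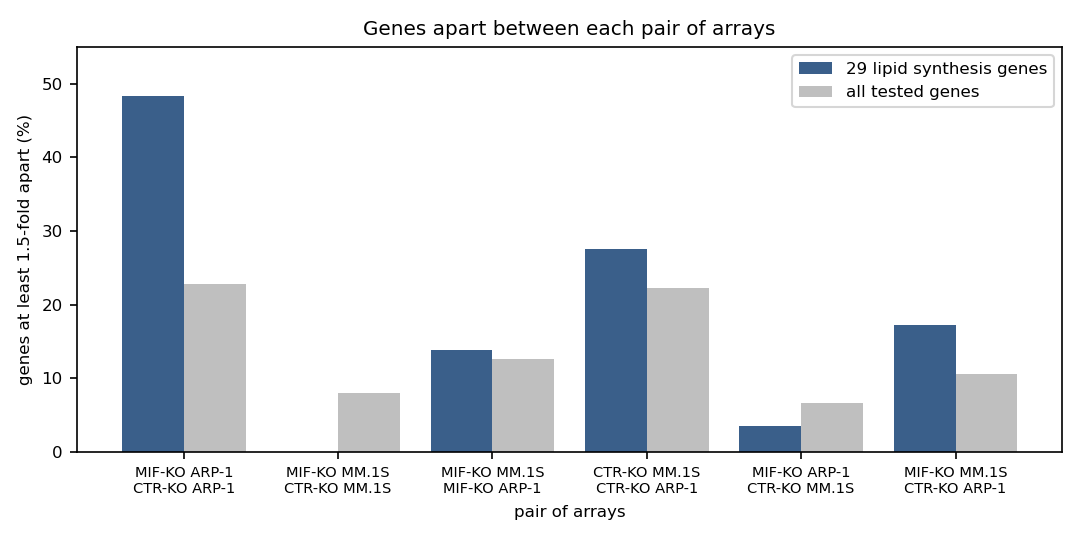
Percent of genes at least 1.5-fold apart (y axis, from 0) between each pair of the 4 arrays (x axis), for 29 lipid genes (dark bars) and all 7442 tested genes (grey bars). The MIF-KO and CTR-KO arrays of ARP-1 give 48.3% against 22.8%; those of MM.1S give 0% against 8.01%.

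Between lines, 4 of 29 lipid genes were at least 1.5-fold apart under MIF-KO (13.8%, against 12.6% of all tested genes) and 8 under CTR-KO (27.6%, against 22.3%). Under CTR-KO, 7 of 29 genes were at least 1.5-fold higher in MM.1S than in ARP-1 (24.1%, against 11.2% of all tested genes) and 1, FASN, was lower (3.45%, against 11.1%). The 7 were FADS1 at 1.87, SREBF1 at 1.21, SCD at 0.90, SREBF2 at 0.88, ACSS2 at 0.77, INSIG1 at 0.70 and ELOVL5 at 0.68, as MM.1S minus ARP-1. Under MIF-KO these genes differed between the lines by -0.36 (SREBF2) to 0.21 (FADS1), so none of them was 1.5-fold apart there. These counts share the CTR-KO ARP-1 array with the comparison within ARP-1 and are not independent of it. Under MIF-KO, ACAT2 (0.96), TMEM97 (0.81) and ACACA (0.65) were higher in MM.1S and HSD17B7 (-0.82) lower, 3 genes (10.3%, against 8.22%) and 1 gene (3.45%, against 4.37%). The line term of the limma fit called 0 of 7442 genes (0%). At an unadjusted p below 0.05 it counted 87 (1.17%), none a lipid gene, again fewer than that threshold would let through with no differences. The lowest p of the lipid genes in the line term was that of FADS1, at 1.04 (SE 0.46, limma adjusted p = 0.99986).

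Directions in the lines were opposite for 20 of the 29 genes (69%), a share close to that of all tested genes (67.6%). With 0.322 or more on the log2 scale in both lines, 10 of 29 genes were opposite (34.5%, against 17.7%) and 0 had the same direction (0%, against 1.6%). At 1.5-fold in both lines, 0 of 29 were opposite with the probe sets used, against 4.88%. The 10 opposite genes were FASN, ELOVL6, ACACA, ACLY, ACAT2, PMVK and TMEM97, which were lower in MIF-KO ARP-1 but higher in MIF-KO MM.1S, and SCD, SREBF2 and HSD17B7 in the reverse directions. The difference between the lines has no residual error and was not tested.

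**Figure D5:**
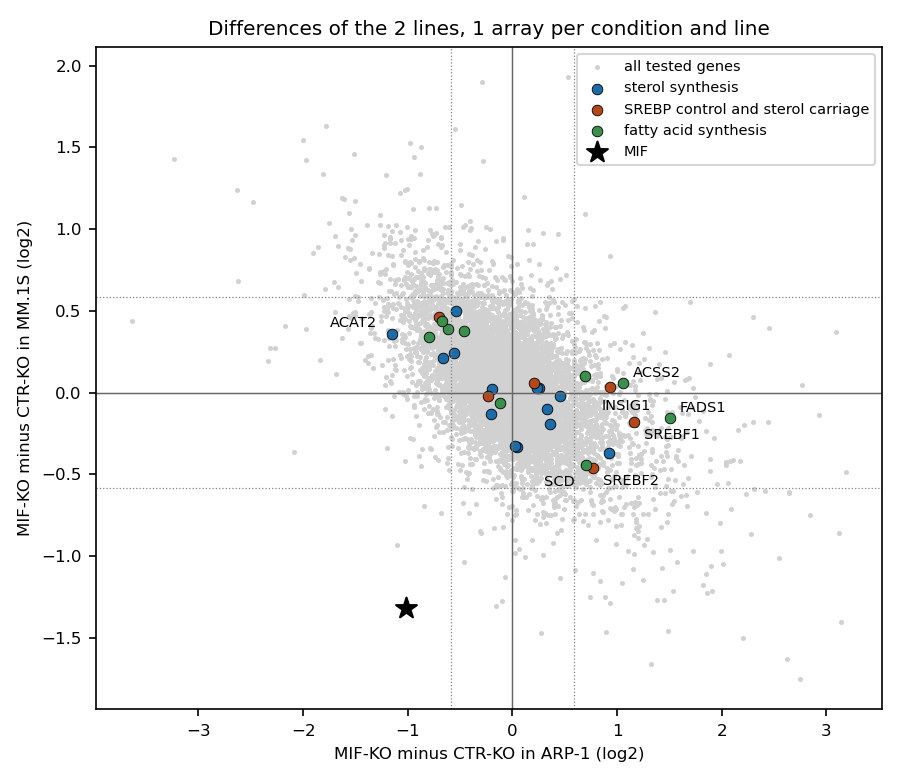
MIF-KO minus CTR-KO (log2) in ARP-1 (x axis) against MM.1S (y axis) for all 7442 tested genes (grey), 29 lipid genes (coloured by role) and MIF (star), with dotted lines at 1.5-fold. The lipid genes spread along the ARP-1 axis, from -1.15 (ACAT2) to 1.502 (FADS1), and on the MM.1S axis from -0.46 (SREBF2) to 0.50 (PMVK).

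Promoter letters are shown for 5 genes, picked with their values known from those at least 1.5-fold apart in ARP-1 whose window holds a match: SREBF2, INSIG1 and SCD, higher in MIF-KO, and NSDHL and TMEM97, lower. They are not the genes furthest apart: FADS1, SREBF1 and ELOVL6 have windows with no match, and ACAT2 has no window in the table. ACSS2 and HSD17B7, with differences of 1.05 and 0.92 in ARP-1, have a CCAAT match but are not shown. RefSeq windows (GRCh38.p14, from 250 bases before to 50 after each start) were found for 26 of the 29 genes. The letters searched on both strands were TCACNCCAC, the sterol regulatory element that SREBPs bind, the E-box CACGTG, and CCAAT, the box bound by the SREBP partner NF-Y, with overlapping matches counted apart. A CCAAT match stood in the window of 21 of the 26 genes (80.8%, against 39.7% of 27305 genes in the table). By role it stood in 11 of 12 sterol genes, 4 of 6 SREBP control genes and 6 of 8 fatty acid genes. The element TCACNCCAC was matched in 1 of 26 genes, SREBF2 (3.85%, against 1.39%), and the E-box in 3, INSIG1, SCAP and ELOVL5 (11.5%, against 8.77%). The 27305 genes outnumber the 14884 named on the array and were not filtered by level, so they are not a matched set for these shares. A match is a description of letters and not a shown binding site, and genes with CCAAT lay in both directions in ARP-1. Only these exact letters within the window were searched, so a missing match does not show that a gene lacks the element.

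The 250 bases before each start follow, 5′ to 3′ on the + strand, in which capitals mark the matches. SREBF2 (chr22:41832855-41833104) holds the sterol element and 1 CCAAT match, INSIG1 (chr7:155297628-155297877) an E-box and 1 CCAAT match, and SCD (chr10:100346983-100347232) 2 CCAAT matches. NSDHL (chrX:152830813-152831062) holds 5 CCAAT matches, of which 2 overlap on opposite strands, and TMEM97 (chr17:28318950-28319199) holds 3.
SREBF2: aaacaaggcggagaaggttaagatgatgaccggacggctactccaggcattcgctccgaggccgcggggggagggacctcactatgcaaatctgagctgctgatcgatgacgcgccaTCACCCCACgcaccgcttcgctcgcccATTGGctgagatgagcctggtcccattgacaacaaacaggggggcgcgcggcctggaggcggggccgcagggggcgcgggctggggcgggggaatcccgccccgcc
INSIG1: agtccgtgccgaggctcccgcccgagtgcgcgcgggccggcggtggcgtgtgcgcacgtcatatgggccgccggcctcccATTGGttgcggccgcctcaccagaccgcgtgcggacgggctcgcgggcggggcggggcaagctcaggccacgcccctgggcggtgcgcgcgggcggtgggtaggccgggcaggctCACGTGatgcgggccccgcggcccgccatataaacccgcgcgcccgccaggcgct
SCD: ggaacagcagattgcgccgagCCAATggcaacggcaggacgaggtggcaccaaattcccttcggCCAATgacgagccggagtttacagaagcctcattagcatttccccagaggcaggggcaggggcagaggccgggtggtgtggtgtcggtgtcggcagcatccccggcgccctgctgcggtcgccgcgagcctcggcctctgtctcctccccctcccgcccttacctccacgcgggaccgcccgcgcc
NSDHL: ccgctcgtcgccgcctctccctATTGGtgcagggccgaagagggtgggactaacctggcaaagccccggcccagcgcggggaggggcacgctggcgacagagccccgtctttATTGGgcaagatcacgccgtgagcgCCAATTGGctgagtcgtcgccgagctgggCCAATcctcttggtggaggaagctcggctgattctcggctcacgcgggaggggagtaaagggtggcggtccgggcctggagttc
TMEM97: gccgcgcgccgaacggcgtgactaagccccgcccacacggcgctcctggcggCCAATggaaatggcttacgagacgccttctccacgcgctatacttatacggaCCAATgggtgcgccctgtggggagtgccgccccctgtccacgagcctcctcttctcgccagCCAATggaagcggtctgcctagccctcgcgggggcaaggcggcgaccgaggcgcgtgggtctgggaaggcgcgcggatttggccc

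Of 33 tested genes on other lipid lists, 9 were at least 1.5-fold apart in ARP-1 (27.3%, against 22.8% of all tested genes) and 2 in MM.1S (6.06%, against 8.01%), both near the shares of all genes. Of 4 tested genes of the sterol and isoprenoid branches (12 listed), 1 was higher by 1.5-fold or more in MIF-KO ARP-1: LBR, a lamin receptor with sterol reductase activity, at 0.69 in ARP-1 and 0.38 in MM.1S. On this list DHDDS differed by 0.13 and 0.46, and NUS1, its partner in dolichol synthesis, by -0.52 and 0.029. Of 2 tested genes of SREBP processing (7 listed), none passed the fold. The ubiquitin ligase RNF139 differed by 0.53 in ARP-1 and by -0.18 in MM.1S, and INSIG2 by 0.42 and -0.20, the directions of SREBF1 in each line. Of 2 tested uptake genes (9 listed), the lipoprotein receptor VLDLR had 6.47 in MIF-KO against 5.32 in CTR-KO ARP-1, and 6.35 in MIF-KO against 6.46 in CTR-KO MM.1S. VLDLR thus lay low on CTR-KO ARP-1 alone, like FADS1. MYLIP, the ubiquitin ligase of lipoprotein receptors, differed by -0.062 and 0.25.

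Of 4 tested genes of cholesterol efflux and storage (8 listed), 0 passed the fold in ARP-1 and 1 in MM.1S (22.8% and 8.01% of all tested genes). That gene, the cholesteryl ester hydrolase NCEH1, had 7.54 in MIF-KO against 7.89 in CTR-KO ARP-1, and 7.82 in MIF-KO against 6.93 in CTR-KO MM.1S. SOAT1, which stores cholesterol as ester, differed by 0.19 in ARP-1 and by 0.47 in MM.1S, and the sterol transfer protein OSBP by 0.35 and -0.087. NCEH1 was thus lowest on CTR-KO MM.1S.

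Further fatty acid synthesis genes (7 tested of 18 listed) had 1 higher and 3 lower in MIF-KO ARP-1, and 0 past the fold in MM.1S. Of all tested genes, 10.9% were higher and 11.9% lower by this fold in ARP-1, and 5.12% higher and 2.89% lower in MM.1S. HACD3, the dehydratase of the elongation cycle, differed by -0.74 in ARP-1 and by 0.41 in MM.1S, the elongase ELOVL4 by -0.75 and 0.33, and the mitochondrial reductase MECR by -0.71 and 0.11. These 3 had the directions of FASN and ELOVL6 in each line, but were named for the largest differences on their list. Signs were opposite in the lines for 67.6% of all tested genes. The higher one was FADS3, named after its values were seen, at 0.60 in ARP-1 and -0.40 in MM.1S. Acyl-CoA and triglyceride synthesis genes (8 tested of 14 listed) had 1 past the fold, the lipin LPIN2, at -0.87 in ARP-1 and 0.35 in MM.1S. LPIN1, an SREBP target, differed by 0.43 and 0.083, and the acyltransferase DGAT2 by 0.092 and 0.34. Fatty acid oxidation genes (6 tested of 18 listed) had 2 lower in ARP-1 and 1 higher in MM.1S with the MIF hairpin, by 1.5-fold or more. The dehydrogenase HADH differed by -0.63 and 0.67, the isomerase ECI2 by -0.70 and 0.086, and the isomerase ECI1 by 0.55 and -0.51. ECI1 passed the fold in neither line.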

How the data were processed

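The authors deposited linear probe set intensities for 53617 probe sets on 4 arrays. The submitters' processing notes list RMA and limma without a version or a role for either. How background was handled, and the genome build, is not given in the sources used here. Values ran from 2.74 to 15935, so log2 was taken with no pseudocount.

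Platform annotation named 1 gene for 16098 probe sets, several for 0 and none for 37519. Of 14884 genes, 779 had several probe sets, and the one with the highest mean was used. Genes at or above the median mean (4.97) were tested with limma 3.58.1 (R 4.3.3), with terms for cell line and condition, eBayes with a trend (3.99 prior degrees of freedom), and Benjamini-Hochberg adjustment over 7442 genes at 0.05. The fit was tested on simulated data in which each change was the same in both lines, so opposite differences were not covered. Arrays are paired by cell line, per the labels, although deviations of same-line arrays from condition means correlated at r = -0.37 across genes. The members and lists, and the rules for naming genes (all members, and at most 3 of each other list by the largest difference), were chosen with earlier results of these data known. No depth exists for arrays, whose number limits the precision.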

Additional observations from a re-analysis of the deposited data

Results flagged for a closer look

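Lipid genes at least 0.322 apart (log2) in opposite directions in the lines are listed as the MM.1S difference minus the ARP-1 difference (log2), which was not tested. The value was 1.51 for ACAT2, 1.17 for TMEM97, 1.13 for ELOVL6, 1.11 for FASN, 1.04 for PMVK, 1.004 for ACACA and 0.84 for ACLY, which were higher in MIF-KO MM.1S and lower in MIF-KO ARP-1. It was -1.295 for HSD17B7, -1.23 for SREBF2 and -1.15 for SCD, which ran the reverse way.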

How the results depend on the processing

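With the ARP-1 arrays exchanged, as their descriptions have it, 401 of 7442 tested genes passed limma. Of the 28 tested lipid genes 1 did, SCD (mean -0.57, limma adjusted p = 0.045). The mean MIF difference was then -0.15, against -1.17 with the titles, since MIF would be higher with its own hairpin in ARP-1. Each ARP-1 difference keeps its size and turns sign, by construction: to -1.502 for FADS1, -1.16 for SREBF1, -1.05 for ACSS2, -0.93 for INSIG1, -0.92 for HSD17B7, -0.77 for SREBF2, -0.70 for SCD and -0.70 for ELOVL5, and to 1.15 for ACAT2, 0.79 for ELOVL6, 0.70 for TMEM97, 0.68 for FASN, 0.66 for NSDHL and 0.62 for ACACA. Mean differences over both lines turned to -0.83 for FADS1, -0.67 for SREBF1, -0.50 for ACSS2, -0.45 for INSIG1, -0.30 for ELOVL5 and 0.76 for ACAT2, none past the threshold. The SREBP control median turned to -0.49 in ARP-1 and -0.26 over both lines, the fatty acid median to 0.12 in ARP-1 and the sterol median to -0.11 over both lines.

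Over both lines the medians were -0.052 for sterol genes (0.0016 to 0.035 when a line was left out), 0.14 for SREBP control (0.0058 to 0.49) and -0.039 for fatty acid genes (-0.12 to 0.10). At 2-fold, 3 genes were higher and 1 lower in MIF-KO ARP-1 (3.7% and 2.9% of all tested genes). At 0.322 or more on the log2 scale, 7 were higher and 5 lower in MIF-KO MM.1S (18.5% and 11.7%). The mean of probe sets put 1 gene, SCD, past 1.5-fold lower in MM.1S. Calls stayed at 0 without the replicate block, with no filter, a stricter one, an eBayes fit without a trend, a pseudocount of 16, quantile normalization and arrays shifted to the same median. With the pseudocount, HSD17B7 in ARP-1 came to 0.57 and ACACA to -0.57, both under 1.5-fold, and ACSS2 to 0.77. Quantile normalization put ACACA at -0.56.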

Other observations

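The hairpins of the microRNAs MIR33A and MIR33B, named after their values were seen, lie in introns of SREBF2 and SREBF1 and have probe sets of their own. MIR33B had a log2 level of 5.79 in MIF-KO against 5.45 in CTR-KO ARP-1, and 5.46 in MIF-KO against 5.49 in CTR-KO MM.1S, a difference of 0.34 in ARP-1 where its host SREBF1 differed by 1.16. MIR33A had 2.56 in MIF-KO against 2.36 in CTR-KO ARP-1, and 2.31 in MIF-KO against 2.34 in CTR-KO MM.1S, all under the probe set median of 3.72, where the order of levels is uncertain. These values rest on 1 array per condition and were not tested.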
